A study of Mus musculus with 4 samples.

Results

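The 8 genes described here, Itga1, Itga4, Itgae, Itgal, Itgav, Itgb1, Itgb2 and Itgb7, encode integrin chains that carry T cells (Tc) into tissues and hold them there. They were chosen by name, by the rows of these symbols among the 32285 genes of the count tables, and all 8 symbols were found. Integrins are surface receptors made of 1 α and 1 β chain, and a chain reaches the surface only with a partner. Itga4 with Itgb1 makes α4β1, the receptor for VCAM-1 on inflamed endothelium, and Itga4 with Itgb7 makes α4β7, which binds MAdCAM-1 on gut venules. Itgae (CD103) with Itgb7 makes αEβ7, which holds lymphocytes on E-cadherin of epithelium. Itgal with Itgb2 makes LFA-1, the receptor for ICAM-1 and ICAM-2. Itga1 (CD49a) with Itgb1 makes α1β1, a collagen receptor of Tc that stay in tissue. Itgav pairs with several β chains to bind matrix proteins and latent TGF-β.

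The cells were spleen Tc of 4 mice, 1 library per mouse, taken on day 23 after transplantation and measured with 10x Genomics 3′ single-cell RNA-Seq, which counts unique molecular identifiers (UMIs) per gene and cell. All BALB/c recipients were lethally irradiated and received 10000 WEHI-3B cells, a BALB/c acute myeloid leukemia line, with C57BL/6 BM, followed on day 2 by 200000 spleen Tc of the donor. Donors of 2 mice were Havcr2fl/fl;E8icre/+, where cre under E8i is meant to delete Havcr2 (TIM-3) in CD8+ cells, and donors of the other 2 were Havcr2fl/fl, with the same floxed alleles and no cre. Per a figure legend of the study, BM and Tc both came from donors of these genotypes. The question of the study was what loss of TIM-3 in CD8+ Tc does to these cells. Per the labels, Tc were enriched with a pan-T cell kit, while a figure legend of the study names sorted donor Tc; the counts do not settle which.

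The libraries held 17693991 to 55045903 gene UMIs in 1511 to 6737 barcodes, and 1213 to 4437 cells per library passed the cell filter. After removal of doublets 11507 cells were analyzed. Of these, 4693 (40.8%) lay in clusters low in Cd3 RNA, mostly erythroid, where 4.62 to 19.1% of cells had a Cd3 UMI, against 98.0% or more in the T cell clusters, so the suspension was not Tc alone. Tc clusters held 4282 cells in which Cd8a or Cd8b1 but not Cd4 was detected (CD8+ Tc) and 1766 with the reverse (CD4+ Tc). Pairs of libraries shared 1 to 10 cell barcodes. Havcr2, the targeted gene, reached 58.4 and 8.03 CPM (UMIs of a gene scaled to the total of the cells summed) in CD8+ Tc of the libraries labelled Havcr2fl/fl;E8icre/+ (replicates 1 and 2) and 55.7 and 116 CPM in those labelled Havcr2fl/fl. The library labelled Havcr2fl/fl;E8icre/+ replicate 1 thus had as much Havcr2 RNA as Havcr2fl/fl replicate 1, which goes against its label, although 3′ UMIs can lie outside the deleted part, which is not given in the sources used here. Hemoglobin RNA (Hbb-bs) in CD4+ Tc was 123 CPM in Havcr2fl/fl replicate 1 and 3419 to 3856 CPM in the other libraries. In CD8+ Tc, by contrast, Havcr2fl/fl replicate 1 was highest with 3411 CPM, beside 1558 to 2661 CPM in the other libraries.

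On GRCm38 with GENCODE M21 the genes lie on 7 chromosomes, each as a protein-coding gene: Itga1 at chr13:114953096-115101964 (minus strand), Itga4 at chr2:79255426-79333123 (plus strand), Itgae at chr11:73090583-73147446 (plus strand), Itgal at chr7:127296260-127335138 (plus strand), Itgav at chr2:83724397-83806916 (plus strand), Itgb1 at chr8:128685654-128733200 (plus strand), Itgb2 at chr10:77530252-77565708 (plus strand) and Itgb7 at chr15:102215995-102231944 (minus strand). RefSeq promoters (GRCm38.p6) were at hand for 5 of the 8, all but Itgae, Itgal and Itgb2. Because Tcf7 is used as a gate further on, the 250 bases before the start of each were searched on both strands for the TCF/LEF core, spelled CTTTGA or CTTTGT. The core was found in 2 of the 5, Itgb1 and Itga1, and in 27.6% of all 32851 promoters. All 5 genes differed in Tcf7-positive CD8+ Tc, as given further on. With a core, Itgb1 rose and Itga1 fell. Without a core, Itgb7 (log2 fold change 0.67) and Itga4 (0.33) rose and Itgav (-1.21) fell. A link of the core to these changes was not tested. The windows with a core are shown, with capitals marking the core. They are chr8:128685404-128685653 (plus strand) and chr13:115101965-115102214 (minus strand).
Itgb1: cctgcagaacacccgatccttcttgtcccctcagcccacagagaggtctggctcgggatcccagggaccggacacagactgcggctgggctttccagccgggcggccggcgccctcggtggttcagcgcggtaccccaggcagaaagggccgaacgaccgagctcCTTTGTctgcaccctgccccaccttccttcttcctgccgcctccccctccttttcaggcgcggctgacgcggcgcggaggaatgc
Itga1: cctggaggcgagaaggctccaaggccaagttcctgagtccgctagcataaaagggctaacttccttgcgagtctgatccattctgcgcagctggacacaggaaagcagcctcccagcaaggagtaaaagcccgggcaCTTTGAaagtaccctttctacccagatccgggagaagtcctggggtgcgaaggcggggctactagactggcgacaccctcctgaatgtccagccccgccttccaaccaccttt
A match of these letters is a description and not a binding site.

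Levels are given as CPM of all cells of a state summed per library, as mean ± SD over libraries with at least 10 cells of the state, and per-mouse values follow the order Havcr2fl/fl;E8icre/+ replicates 1 and 2, then Havcr2fl/fl replicates 1 and 2. States are clusters made without the 8 genes and named with "-like" from marker genes; their levels are descriptions with no test, and levels are not compared between genes, since 3′ counts are not scaled by length. In summed cells, more cells that express a gene and more RNA per cell cannot be told apart. CPM given with tests use TMM library sizes and so differ slightly. Of 10 CD8 and 7 CD4 clusters, 8 and 5 took a name.

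Itgb1, the β chain shared by α4β1 and α1β1 and others, was highest among CD8+ Tc in short-term effector-like, precursor exhausted-like and naive or memory-like cells. Its level was 814 ± 265 CPM in short-term effector-like cells (Klrg1, Cx3cr1 and S1pr5 among their markers), with 842, 683, 1171 and 559 CPM in the 4 mice. This state held only 28, 19, 12 and 27 cells in the 4 mice, so its values here and further on rest on few cells. Precursor exhausted-like cells (Tcf7, Slamf6) followed with 614, 541, 628 and 652 CPM in the 4 mice, and naive or memory-like cells had 483 ± 97.0 CPM. The ranges of the first 3 states overlapped or touched, and all mice of these states lay above all those of the next state in order. Terminally exhausted-like cells (Pdcd1, Lag3, Entpd1) were lowest with 74.8, 149, 79.0 and 68.1 CPM, beside Gzmk effector-like cells with 96.6 ± 16.0 CPM; these last 2 did not differ beyond their spread. Among CD4+ Tc, Itgb1 was 1053 ± 258 CPM in an unnamed cluster with 3 of 6 naive or memory markers raised and 916 ± 247 CPM in precursor memory-like cells, whose ranges overlapped. It was 150.2 ± 112 CPM in cytotoxic CD4-like cells and 33.2 ± 9.13 CPM in regulatory CD4-like cells (Foxp3, Il2ra), the lowest of all T cell states.

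Itgav, the α chain of receptors for RGD ligands, had nearly the reverse order. Gzmk effector-like cells held 241, 103, 113 and 122 CPM in the 4 mice and terminally exhausted-like cells 172, 135, 79.0 and 123 CPM, with overlapping ranges. Precursor exhausted-like cells were at 28.5 ± 11.8 CPM and short-term effector-like cells at 31.1 ± 22.1 CPM. The spread over mice was large in each of these, and Havcr2fl/fl;E8icre/+ replicate 1 was highest in both high states. In CD4+ Tc the highest level was in regulatory CD4-like cells, 148 ± 2.49 CPM (n = 3 libraries), above every library of every other CD4 state. Across 18 T cell states, which include T cells with a UMI of both Cd4 and Cd8 genes or of neither as a state each, the Pearson correlation of log2(CPM + 10) between Itgav and Itgb1 was -0.78; the points share libraries and depth.

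Itga1, the α chain of α1β1, was concentrated in few states. In an unnamed CD8 cluster of 1114 cells, with Cxcr6 and P2rx7 raised of 7 residency markers, it was 104, 124, 40.6 and 103 CPM in the 4 mice. Short-term effector-like cells had 94.2 ± 58.1 CPM and naive or memory-like cells 61.0 ± 12.6 CPM, and the ranges of these 3 overlapped. The remaining CD8 states with 4 libraries lay between 6.40 ± 3.76 and 16.2 ± 3.96 CPM. In CD4+ Tc, the unnamed cluster with naive or memory markers had 115 ± 34.9 CPM, with every mouse above every mouse of the other CD4 states, the next being precursor memory-like cells with 14.3 ± 2.49 CPM.

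Itgae, the α chain of αEβ7, was near absent from CD8+ Tc and, among the CD4 states, marked regulatory CD4-like cells. It was 317, 319 and 222 CPM in regulatory CD4-like cells of Havcr2fl/fl;E8icre/+ replicates 1 and 2 and Havcr2fl/fl replicate 2, while Havcr2fl/fl replicate 1 had 5 such cells and was left out. The next CD4 state had 15.2 ± 9.21 CPM, and no library of another CD4 state reached the lowest regulatory value. CD8 states had at most 2.49 ± 0.855 CPM. In Gzmk effector-like cells 0 of 433 cells had an Itgae UMI, which allows a share of up to 0.693% of cells with a UMI, and in short-term effector-like cells 0 of 86, which allows up to 3.49%; these limits cover counting error only.

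Itgal and Itgb2, the chains of LFA-1, had similar orders over the states, with a correlation of 0.80 on the same scale over the same 18 states. Itgal was highest in short-term effector-like cells (507 ± 101 CPM) and Gzmk effector-like cells (428 ± 93.1 CPM) and lowest of the CD8 states with 4 libraries in G2 and M phase-like cells (204 ± 25.0 CPM). Itgb2 was 483 ± 88.7 and 446 ± 57.0 CPM in the same effector states, 386 ± 10.9 CPM in terminally exhausted-like cells and 213 ± 20.2 CPM in precursor exhausted-like cells. Every mouse's terminally exhausted value for Itgb2 was above every precursor exhausted value. Among CD4+ Tc, cytotoxic CD4-like cells had the most of both, 450.4 ± 130.0 CPM of Itgal and 408 ± 114 CPM of Itgb2; only the Itgb2 range stood clear of the next state.

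Itga4, the α chain common to α4β1 and α4β7, was present in every T cell state. It ran from 567 ± 69.5 CPM in G2 and M phase-like cells to 1189 ± 118 CPM in short-term effector-like cells among CD8 states with 4 libraries, and from 378 ± 78.9 CPM in regulatory to 881 ± 69.6 CPM in cytotoxic cells among CD4 states. Itgb7, its partner for gut homing and the partner of Itgae, was 389.7 ± 114 CPM in short-term effector-like and 328, 233, 347 and 299 CPM in naive or memory-like CD8+ Tc of the 4 mice, against 93.6 ± 31.9 CPM in terminally exhausted-like cells. In CD4+ Tc it was 455 ± 54.7 CPM in the unnamed naive or memory-marked cluster, 388 ± 47.6 CPM in regulatory cells and 104 ± 10.9 CPM in cytotoxic cells, which were lowest.

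**Figure D1:**
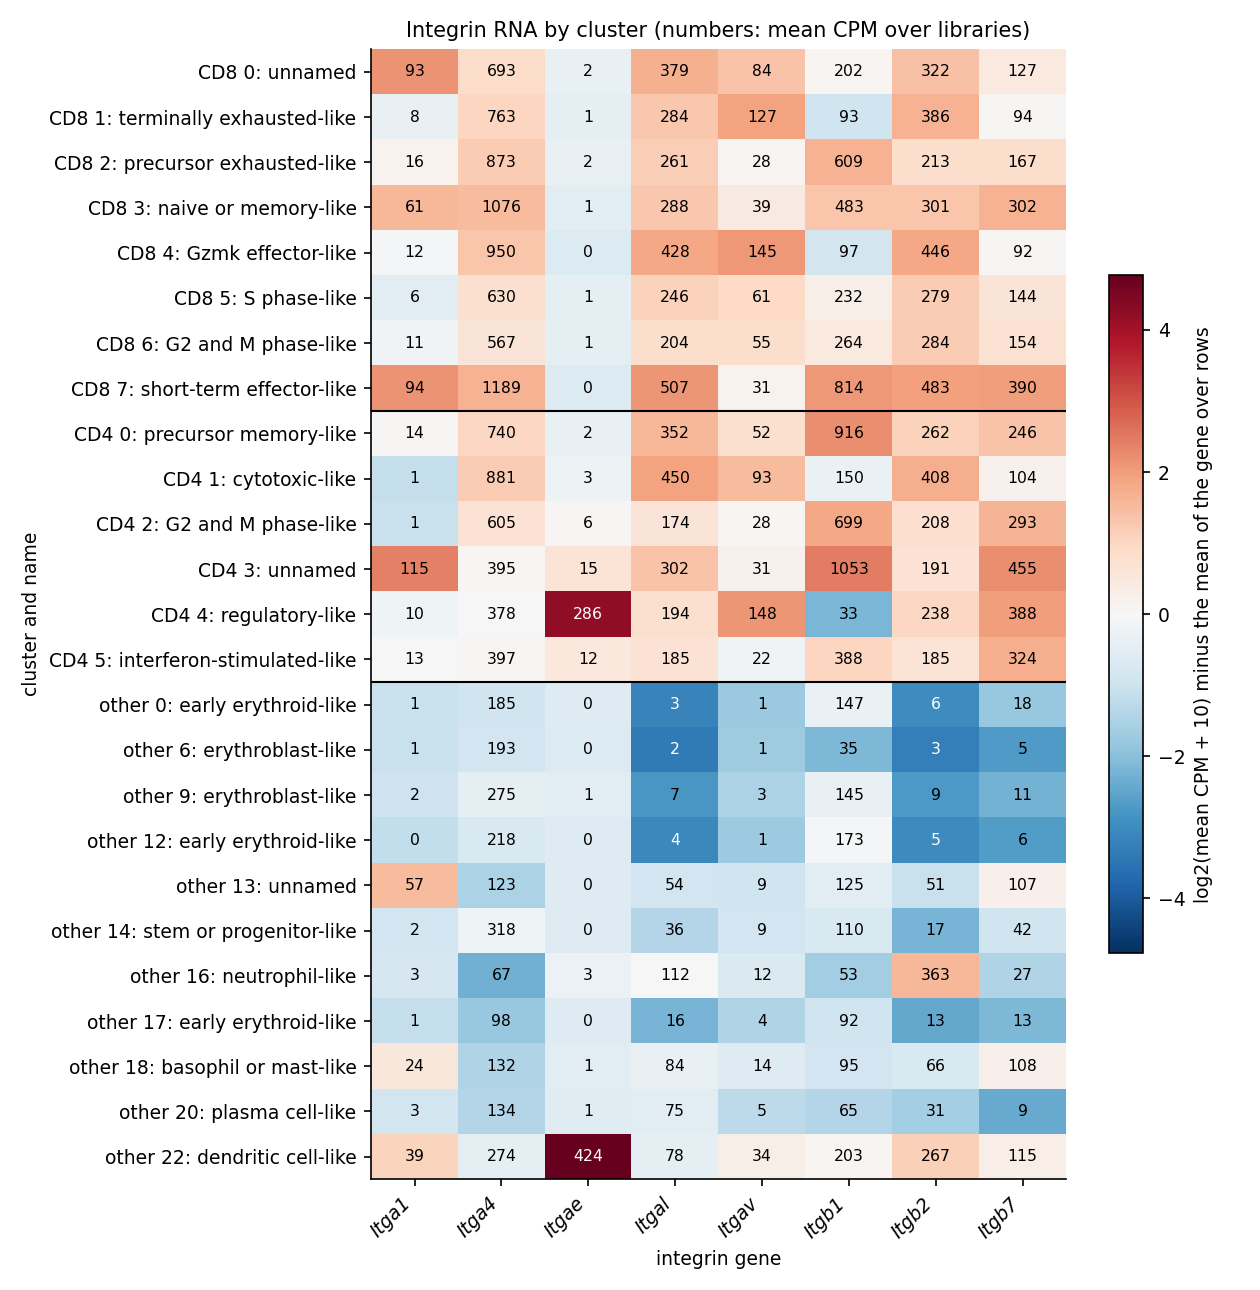
Levels of the 8 integrin genes by T cell state and in other clusters, as mean CPM over libraries with at least 3 of them (numbers), for genes in columns and clusters in rows; color is log2(mean CPM + 10) minus the gene's mean over rows. Itgb1 is high in short-term effector-like and precursor exhausted-like CD8 cells, and Itgav in Gzmk effector-like and terminally exhausted-like ones. Itgae stands out in regulatory CD4-like and dendritic cell-like cells. T cells with a UMI of both Cd4 and Cd8 genes or of neither are not shown.

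Outside the T cell clusters the chains split by lineage. Dendritic cell-like cells carried Itgae at 424 ± 165 CPM (n = 3), and the next of these clusters, neutrophil-like cells, had 3.01 ± 5.39 CPM. Neutrophil-like cells had Itgb2 at 363 ± 30.8 CPM and dendritic cell-like cells at 267 ± 55.1 CPM, while the largest early erythroid-like cluster had 5.65 ± 1.77 CPM. Itga4 and Itgb1, by contrast, were also measured in that erythroid cluster, at 185 ± 14.9 and 147 ± 17.9 CPM. Stem or progenitor-like cells held 318 ± 42.4 CPM of Itga4, and Itgb7 stayed at or below 115 ± 4.63 CPM in all these clusters.

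Because a chain needs a partner, cells with a UMI of both chains were counted after each cell was thinned to 2000 UMIs. Itga4 and Itgb1 were found together in 53.6% (range over libraries 35.7 to 67.9%) of short-term effector-like and 44.0% (range over libraries 36.6 to 52.6%) of precursor exhausted-like CD8+ Tc, against 11.7% (range over libraries 7.58 to 19.8%) of terminally exhausted-like cells. The shares multiplied gave 51.7%, 41.9% and 12.8%, so co-detection lay close to what the chains' own shares give. Itga4 and Itgb7 were found together in 43.7% (range over libraries 16.7 to 60.7%) of short-term effector-like and 33.8% (range over libraries 28.6 to 42.1%) of naive or memory-like CD8+ Tc. The αEβ7 pair Itgae and Itgb7 was seen in 15.8% (range over libraries 0 to 24.0%) of regulatory CD4-like cells, with 0 of 13 cells in Havcr2fl/fl replicate 2. LFA-1 chains were seen together in 37.3% (range over libraries 27.5 to 48.3%) of cytotoxic CD4-like and 37.1% (range over libraries 21.4 to 53.6%) of short-term effector-like cells. For background, 1 erythroblast-like cluster thinned to the same depth showed 1.57% for Itga4 with Itgb1 and 0.213% for Itga4 with Itgb7. It showed 0% for the αEβ7 and LFA-1 pairs. Over all cells outside the T cell clusters, 27.5% had an Itga4 UMI and 17.3% an Itgb1 UMI at that depth. The values of this 1 cluster thus need not hold for the others.

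**Figure D2:**
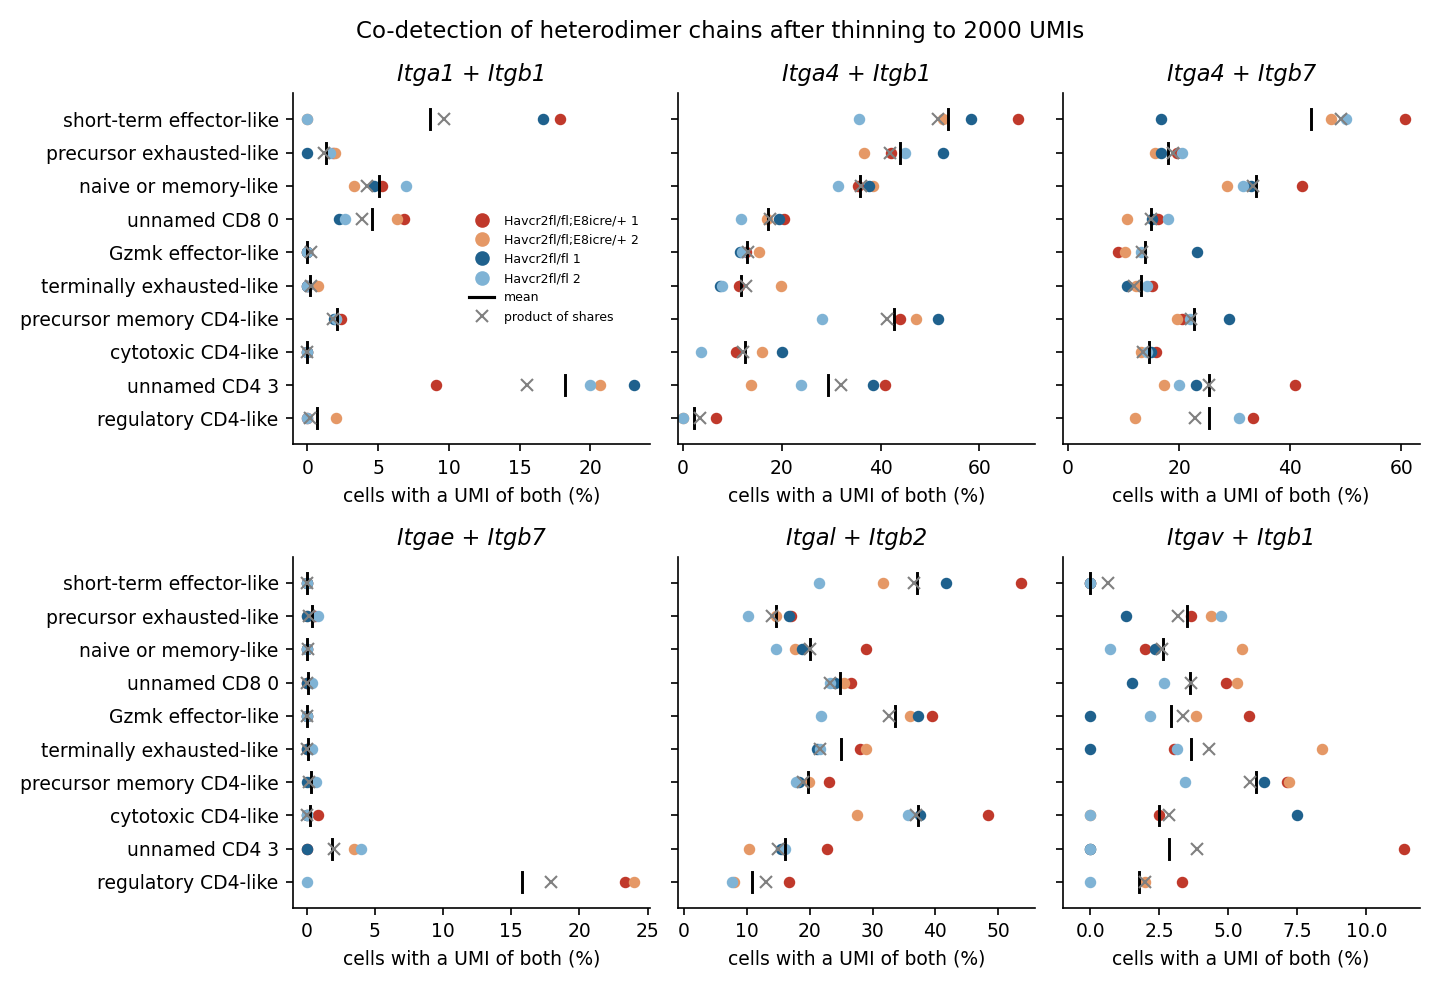
Share of cells with a UMI of both chains of each heterodimer pair by state, in percent of cells thinned to 2000 UMIs; points are libraries, bars their mean and crosses the product of the chains' own shares. Itga4 with Itgb1 is most frequent in short-term effector-like and precursor exhausted-like CD8 cells.

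The genes whose levels over the 18 states were most like each chain, out of 7641 genes with a mean of at least 10 CPM, were found by Pearson correlation of log2(CPM + 10), given in parentheses as a description. For Itgae these were Foxp3 (0.96), Gm28112 (0.91) and Il2ra (0.90). Itgb1 was most like Pdlim1 (0.89), S1pr1 (0.85) and Rpl29 (0.84), and Itgav most like AI504432 (0.95), AW112010 (0.93) and Nedd9 (0.93). Itgal was nearest to Nop53 (0.91), Adcy7 (0.90) and Hltf (0.90), Itgb2 to Ubxn1 (0.89), Gnptg (0.88) and Bscl2 (0.88) and Itgb7 to Cib1 (0.90), Atp2b1 (0.86) and Kcnn4 (0.85). Itga4 was nearest to Ctsd (0.85), Smpdl3b (0.85) and Serpinb9 (0.84), and Itga1 to B3gnt5 (0.79), Jaml (0.77) and Ccdc88b (0.77).

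CD8+ and CD4+ Tc of the same mouse differed in 7 of the 8 integrin genes (edgeR's quasi-likelihood test with the mouse as a block, Benjamini-Hochberg adjusted over all genes), beside 24.8% of all genes tested (12.9% higher and 11.9% lower in CD8+ Tc). The p-values of this and later tests with the mouse as a block concern the difference within a mouse over these 4 mice. The test estimates the spread of a gene partly from that of all genes, so its SE and p do not measure the gene's own variation alone. The p-values of genotype within a class of cells concern the difference between mice, with the spread estimated in the same way. Itgb1 was 220.1, 358, 335 and 230.3 CPM in CD8+ Tc and 783, 699, 932 and 481 CPM in CD4+ Tc of the 4 mice. Every CD4 value was above every CD8 value, with a log2 fold change, CD8 minus CD4, of -1.34 ± 0.11 (SE) and an adjusted p of 9.58e-07. Itgae was 1.11, 1.46, 1.30 and 2.56 CPM in CD8+ Tc and 13.4, 25.0, 14.0 and 14.6 CPM in CD4+ Tc. It was lower in CD8+ Tc without overlap, by a log2 fold change of -3.47 ± 0.27 (adjusted p = 5.63e-07). Itgb7 was 157, 140.2, 179 and 158 CPM in CD8+ Tc and 239, 209.8, 298 and 266 CPM in CD4+ Tc. It was also lower in CD8+ Tc of 4 of 4 mice (-0.66 ± 0.06, adjusted p = 1.5e-06).

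The other 4 chains that passed were higher in CD8+ Tc of every mouse. Itga1 was 26.8, 48.2, 26.5 and 36.5 CPM in CD8+ Tc and 13.7, 14.6, 17.3 and 17.5 CPM in CD4+ Tc. The groups did not overlap (log2 fold change 1.21 ± 0.16, adjusted p = 9.2e-05), but with classes set by cluster in place of Cd4 and Cd8 UMIs the value was 0.08 and the adjusted p was 0.799. Itgav (0.51 ± 0.08, adjusted p = 5.25e-04), Itgb2 (0.30 ± 0.06, 0.00155) and Itga4 (0.20 ± 0.05, 0.0163) were higher by less. Itga4 lost its call without Havcr2fl/fl;E8icre/+ replicate 1 (adjusted p = 0.0551), Havcr2fl/fl;E8icre/+ replicate 2 (0.0928) or Havcr2fl/fl replicate 2 (0.061). Itgal did not pass the test (-0.05 ± 0.06, adjusted p = 0.573) and was 334, 290.3, 322 and 243 CPM in CD8+ Tc. Without the mouse as a block 4 of the 8 genes passed.

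**Figure D3:**
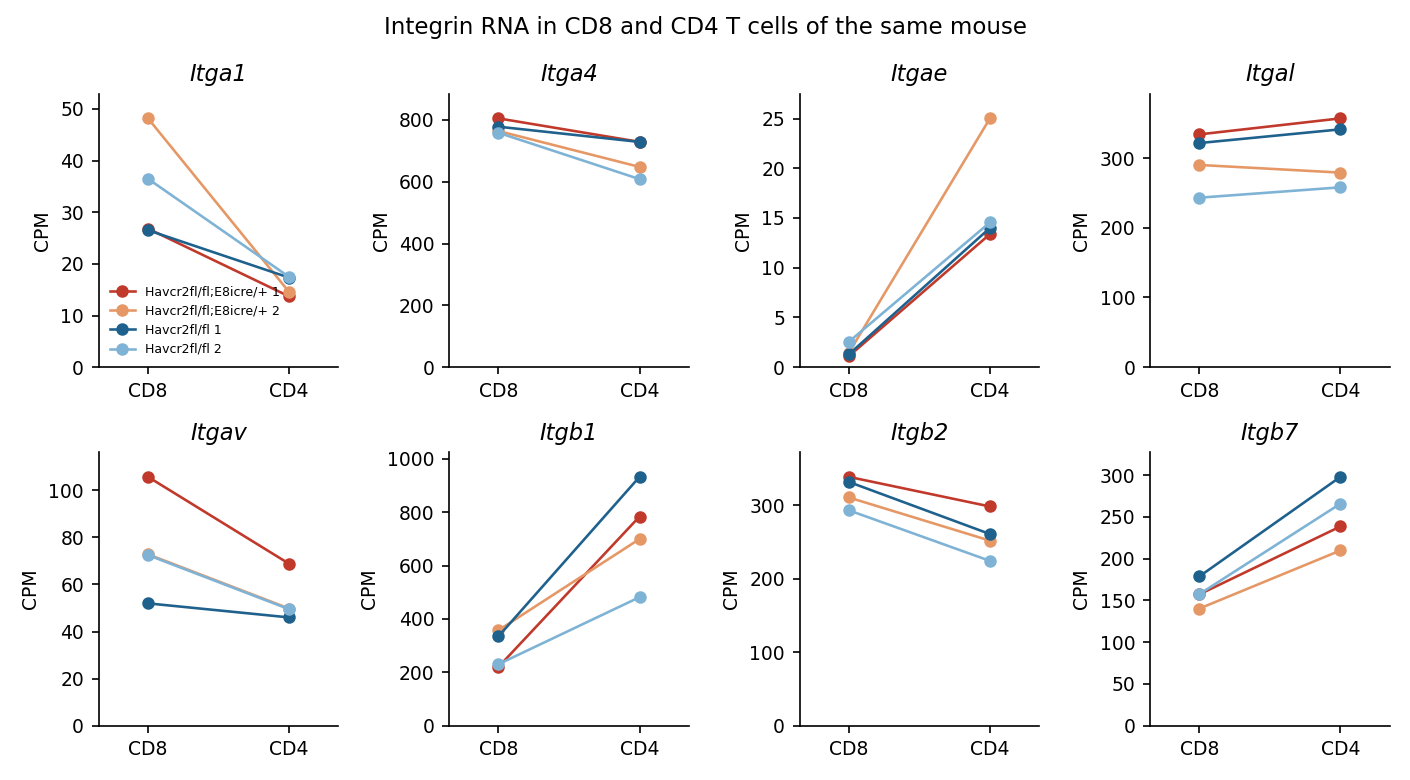
CPM of the 8 integrin genes in CD8 and CD4 T cells of the 4 mice, on linear axes from 0 that differ between panels, with each point a mouse and lines joining the classes of a mouse. Itgb1, Itgae and Itgb7 are lower in CD8 cells of every mouse, and Itga1 and Itgav higher.

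Related genes fixed by name were counted in the same test. Of 6 other integrin chains tested, 1 was higher in CD8+ Tc, Itgax (2.82), and 3 were lower, Itgb8 (-1.29), Itgb3 (-0.94) and Itga6 (-0.44), all as log2 fold changes. Itgax had only 4, 1, 0 and 1 UMIs in CD4+ Tc of the 4 mice, near the floor. Of 23 genes of integrin activation and linkage, 4 were higher and 7 lower, with a median log2 fold change of -0.01 beside 0.01 over all genes. Among 9 residency genes 2 were higher, Runx3 (1.32) and Cxcr6 (0.75), and 3 lower, Cd69 (-1.40) and P2rx7 (-1.03) among them. The egress genes S1pr1, the receptor that leads Tc out of tissue (-1.20), Ccr7 (-2.42) and Klf2 (-0.60) were lower. Of 3 ligand genes tested, Icam1 was higher (0.35) and Icam2 lower (-0.48).

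To compare states by a test, CD8+ Tc were divided by a UMI of a gene that is no integrin, and the cells of each side were summed per mouse. Depth can decide whether a gating gene is seen, so the gates were also set after thinning. Median UMIs per cell and library were 3364 to 6540.0 with and 3007 to 7113 without a Tcf7 UMI, 3632 to 7050.0 and 2988 to 6974 for Cx3cr1, and 3077 to 7149 and 2930.0 to 6019 for Cxcr6. The 3 gates share cells, so their results are not independent. Itgae was too low to be tested in CD8+ Tc, which leaves 7 genes.

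Tcf7, the transcription factor of precursor exhausted and memory Tc, set apart 628 cells from 3654, and 6 of the 7 integrin genes differed, beside 14.6% of all genes (7.61% higher and 7% lower). Itgb1 was 502, 579, 768 and 664 CPM in Tcf7-positive cells and 172, 265, 255 and 180.4 CPM in Tcf7-negative cells of the 4 mice. All positive values were above all negative ones (log2 fold change 1.52 ± 0.10, edgeR adjusted p = 2.31e-08). Itgb7 rose without overlap (0.67 ± 0.09, 4.36e-05) and Itga4 rose with overlap (0.33 ± 0.09, 0.0222), so both chains of α4β1 and of α4β7 were higher. Itgav was 41.4, 42.9, 28.6 and 16.9 CPM in positive and 110.5, 81.0, 54.6 and 74.6 CPM in negative cells. It fell in 4 of 4 mice (-1.21 ± 0.15, 1.98e-05), as did Itga1 (-1.18 ± 0.22, 0.00129) and Itgb2 (-0.58 ± 0.08, 7.33e-05). With cells thinned to 2000 UMIs before the gate, the call for Itgb2 was lost (log2 fold change -0.28, adjusted p = 0.204). Itga1 lost its call without Havcr2fl/fl;E8icre/+ replicate 2 (adjusted p = 0.0821), and Itga4 without Havcr2fl/fl replicate 1 (0.114) or 2 (0.107). Itgal did not pass (-0.20 ± 0.09, 0.152).

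The egress genes S1pr1 (1.63), Klf2 (1.38) and Ccr7 (5.40) rose with the same gate, as log2 fold changes. Ccr7 had only 17, 27, 9 and 12 UMIs in all CD8+ Tc of the 4 mice. Of 9 residency genes 6 fell, with Cxcr6 (-1.50) and Rgs1 (-1.46) first by adjusted p, and 2 rose, Cd69 (1.23) and P2rx7 (1.75). Of 23 activation and linkage genes 6 rose, Skap1, an adaptor of integrin activation (0.63), Actn1 (0.74) and Flna, a filamin (0.55), among them, and 2 fell. None of 5 other integrin chains passed. Of 3 ligand genes, Icam2 rose (0.92) and Spp1 fell (-0.93).

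Cx3cr1, the fractalkine receptor of circulating effector Tc, set apart 577 cells, and 4 of 7 integrin genes differed, beside 10.4% of all genes (6.45% higher and 3.92% lower). Itgb7 was 257, 195, 239 and 217 CPM in positive and 139, 127, 155 and 143 CPM in negative cells. The sides did not overlap (0.70 ± 0.07, edgeR adjusted p = 3.99e-08). Itgb1 was 367, 526, 468 and 296 CPM against 193, 318, 283 and 212 CPM, higher in each mouse with overlap between mice (0.73 ± 0.07, 1.01e-08). Itga4 rose (0.41 ± 0.06, 3.07e-05) and Itgav fell (-0.51 ± 0.11, 0.00129), the latter losing its call with thinned cells (log2 fold change -0.79, adjusted p = 0.0899). Itga1 (-0.05 ± 0.15), Itgal (-0.05 ± 0.07) and Itgb2 (0.10 ± 0.07) did not pass, and without the mouse as a block 1 of 7 genes passed.

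With Cx3cr1, the egress genes Klf2 (1.73), S1pr5 (4.68) and S1pr1 (1.47) rose, and 6 of 9 residency genes fell, Cxcr6 (-0.52) and Rgs1 (-0.78) among them. S1pr5 was near the floor, with 16, 30, 9 and 6 UMIs in positive and 6, 4, 1 and 1 in negative cells of the 4 mice. Of 22 activation and linkage genes 5 rose, including Flna (0.89), Rasgrp2, the exchange factor that loads Rap1 (1.14), and Rap1b (0.61), and 1 fell. Itgax (1.38) and Itga6 (0.52) rose among 5 other integrin chains, and none of 3 ligand genes passed.

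Cxcr6, the chemokine receptor of tissue-held Tc, was found in 3077 of 4282 cells, and 5 of 7 integrin genes differed, beside 8.12% of all genes (3.8% higher and 4.32% lower). Itga1 was 32.3, 63.9, 29.3 and 44.0 CPM in positive and 2.90, 3.56, 9.15 and 20.04 CPM in negative cells of the 4 mice. Every positive value was above every negative one (log2 fold change 2.42 ± 0.29, edgeR adjusted p = 1.1e-05). The fold was smaller in both Havcr2fl/fl mice than in both Havcr2fl/fl;E8icre/+ mice, and smallest in Havcr2fl/fl replicate 2, a difference that was not tested. Negative cells held only 6, 7, 6 and 34 Itga1 UMIs in the 4 mice, so the size of the fold change rests on few counts. Itgav rose (0.61 ± 0.11, 6.54e-04), while Itgb1 fell (-0.58 ± 0.07, 1.26e-05), as did Itgb7 (-0.45 ± 0.08, 0.00128) and Itga4 (-0.31 ± 0.07, 0.00702). The calls for Itgav and Itga4 were lost with thinned cells, Itgav with a log2 fold change 0.25, adjusted p = 0.235 and Itga4 with a log2 fold change -0.15, adjusted p = 0.0677; Itga4 also lost it without Havcr2fl/fl replicate 1 (adjusted p = 0.0748). Itgb2 (0.19 ± 0.08, 0.141) and Itgal (0.07 ± 0.08, 0.738) did not pass. Without the mouse as a block 1 of 7 genes passed.

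The egress genes Klf2 (-1.51), S1pr1 (-1.75) and Ccr7 (-3.77) fell with Cxcr6. Ccr7 was near the floor, with 1, 4, 4 and 2 UMIs in positive and 16, 23, 5 and 10 in negative cells of the 4 mice. Of 8 residency genes other than the gate 5 rose, Rgs1 (0.83), Ahr (1.20) and Runx3 (0.32) among them, and Cd69 fell (-0.67). Of 22 activation and linkage genes 4 fell, Rasgrp2 (-1.05) and Flna (-0.85) first, and 1 rose. Spp1 rose (0.73) and Icam2 fell (-0.92) among 3 ligand genes, and none of 5 other integrin chains passed.

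**Figure D4:**
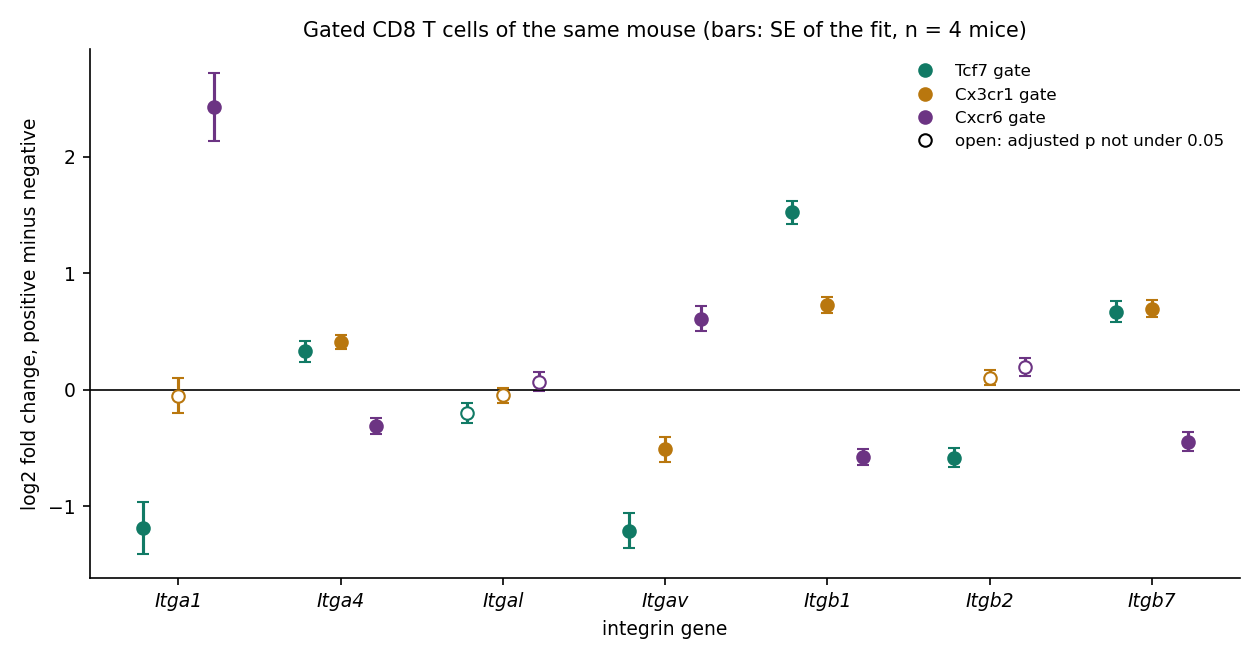
Log2 fold change of the integrin genes, with SE, between CD8 T cells with and without a Tcf7, Cx3cr1 or Cxcr6 UMI of the same mouse. Filled points passed the test. Itgb1 and Itgb7 are above 0 for Tcf7 and Cx3cr1 and below 0 for Cxcr6, and Itgav is the reverse.

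Between the donor genotypes none of the integrin genes passed the test in any class of cells. In CD8+ Tc it was 0 of 7 genes tested, beside 0.0275% of all genes (0.0184% higher and 0.00918% lower; 279 genes had an unadjusted p under 0.05), and Itgae, with 5 to 12 UMIs per library, was not tested. Itgav was 102 and 71.6 CPM in the libraries labelled Havcr2fl/fl;E8icre/+ and 51.1 and 70.9 CPM in the Havcr2fl/fl libraries. The groups did not overlap, but Havcr2fl/fl;E8icre/+ replicate 2 and Havcr2fl/fl replicate 2 were nearly equal (log2 fold change, Havcr2fl/fl;E8icre/+ minus Havcr2fl/fl, 0.51 ± 0.23, unadjusted p = 0.0546, edgeR adjusted p = 1.00). Itgb7 also did not overlap, at 152 and 138 against 176 and 154 CPM (-0.19 ± 0.18). With 2 libraries per genotype, many genes part in this way by chance, and the share over all genes was not counted. The lack of overlap is thus only a description of these libraries. Itga4 was 777, 751, 765 and 742 CPM, and Itgb1 213, 351, 329 and 225 CPM in the 4 mice; both overlapped, with fold changes of 0.02 ± 0.21 and 0.02 ± 0.28. Itga1 (0.23 ± 0.29), Itgal (0.13 ± 0.21) and Itgb2 (0.05 ± 0.19) overlapped as well.

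In CD4+ Tc 0 of 8 genes passed, beside 0.0103% of all genes (0% higher and 0.0103% lower; 304 genes at an unadjusted p under 0.05). Itgb7 was 244, 216, 305 and 271 CPM in the 4 mice, lower in both Havcr2fl/fl;E8icre/+ libraries (-0.33 ± 0.21, edgeR adjusted p = 1.00). The genotypes did not overlap for Itga1 (-0.29 ± 0.30) and Itgav (0.32 ± 0.23) either. As in CD8+ Tc, such parting is frequent by chance with 2 libraries per genotype and was not counted over all genes. Itgae was 13.7, 25.7, 14.3 and 14.9 CPM, with Havcr2fl/fl;E8icre/+ replicate 2 apart from the other 3 (0.45 ± 0.38). The genotype effect in CD8+ minus that in CD4+ Tc passed for 0 of 8 genes, beside 0.0184% of all genes (0.00918% higher and 0.00918% lower; 466 genes at an unadjusted p under 0.05), and was widest for Itgae (-0.97 ± 0.57) and Itga1 (0.58 ± 0.34), and the smallest edgeR adjusted p of the 8 was 0.995. DESeq2 called 0 integrin genes in these comparisons too.

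**Figure D5:**
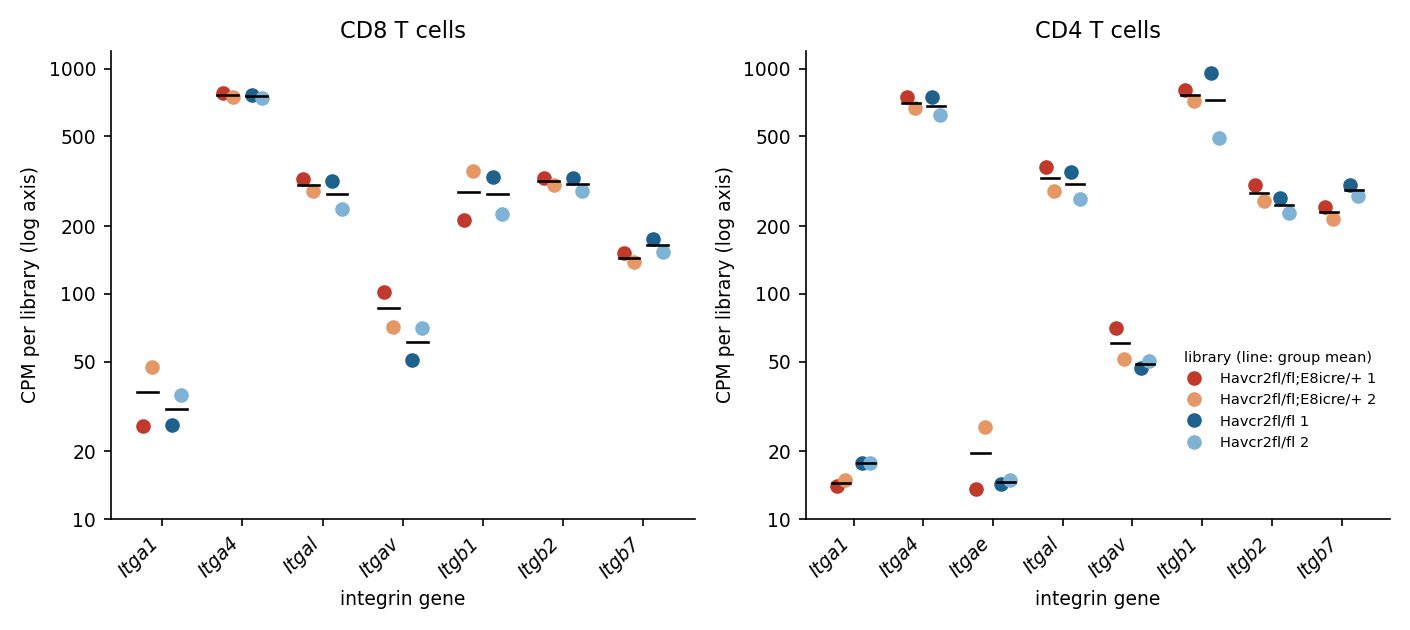
CPM of the integrin genes by donor genotype in CD8 T cells (left) and CD4 T cells (right), on a log axis; each point is a library and each line the mean of a genotype. No gene passed the test, and for most genes the libraries of the genotypes overlap.

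Outside the T cell clusters 0 of 8 genes passed, beside 0% of all genes (181 at an unadjusted p under 0.05), and the Havcr2fl/fl libraries differed from each other. Itgb2 was 25.8, 29.7, 72.3 and 9.80 CPM in the 4 mice and Itgal 25.0, 26.8, 39.0 and 8.08 CPM. Havcr2fl/fl replicate 1 was highest and Havcr2fl/fl replicate 2 lowest for both. Neutrophil-like cells, which carry Itgb2, made up 17.6% of cells outside the T cell clusters in Havcr2fl/fl replicate 1 and 1.89% in replicate 2. They made up 7.74% and 6.51% in the Havcr2fl/fl;E8icre/+ libraries. An unnamed cluster with 6 of 7 monocyte or macrophage markers raised also differed in its share. It held 110 of 1060, 71 of 737, 69 of 404 and 100 of 2492 of these cells in the 4 mice. The part of either cluster in the result was not tested. Itgb2 had a log2 fold change of -0.55 ± 0.90 with all libraries, 1.49 (adjusted p = 0.0396) without Havcr2fl/fl replicate 1 and -1.36 (0.0407) without Havcr2fl/fl replicate 2, so its direction rested on 1 library. None of the genes of the 5 related lists passed in any comparison of genotypes.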

How the data were processed

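Single-cell RNA of 4 mouse spleen libraries was analyzed, 2 per donor genotype as the labels give it. The authors deposited UMI counts per gene and cell, whole numbers without normalization, made with Cell Ranger 6.1.2 and mm10 per the submitters' processing notes; the annotation is not given in the sources used here. Barcodes were required to have 500 genes and 1000 UMIs or more and no more than 10% of UMIs on mitochondrial genes, and Scrublet (scanpy 1.11.5) removed 125 doublets. The antibody tag was left out of library sizes. Cells were clustered with Seurat 5.3.0 (2000 variable genes, 30 dimensions, 20 neighbors) in R 4.3.3, with the 8 integrin genes, Havcr2, sex genes and receptor variable genes left out. A cluster could take a name if at least 3 of its markers, and no fewer than were not raised, were raised. Raised meant by 0.5 on the log2 scale, with detection in at least 10% of its cells. It stayed unnamed if another cell type had more markers among its 10 top genes. The same held if its cells had few UMIs for their library and no marker was among those genes. Hemoglobin genes led a CD8 cluster of 39 cells and a CD4 cluster of 17 cells, both unnamed.

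UMIs were summed per library and class and tested with edgeR 4.0.16 (TMM, filterByExpr, quasi-likelihood test, Benjamini-Hochberg adjustment over all genes, threshold 0.05); standard errors come from the fold change and the F statistic. Comparisons within a mouse used the mouse as a block. All 8 integrin genes are named in each comparison, with list genes past the threshold by smallest adjusted p, up to 4 per list, the 3 genes most like each member, Havcr2, gates and markers. A result for 1 gene of the egress list is not reported here. The members and lists were chosen with earlier results of these data known. On simulated data of the same depth, the test of genotype in CD8+ Tc called 65% of 100 genes given a log2 change of 1 and 94% of 100 given a change of 2, among 10897 genes. The simulation gave every gene the same fixed spread between libraries, which was not taken from the data. These shares therefore need not hold for the real libraries. Alternatives were DESeq2 1.42.0, its size factors in edgeR, no filter on low counts, stricter cell filters, more doublets removed, donor tag-positive cells only, each library left out, other blocks, classes by cluster, no cycling cells, thinned cells, and other clusterings. Figures were drawn with matplotlib 3.10.9.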

Additional observations from a re-analysis of the deposited data

Results flagged for a closer look

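Of 58 sets of values over the 4 mice, each a gene in CD8+ Tc, CD4+ Tc or 1 side of a gate, 3 had 1 mouse far from the other 3 by Dixon's criterion, and chance gives about 1 in 20. Itgae in CD4+ Tc was 25.0 CPM in Havcr2fl/fl;E8icre/+ replicate 2 and 13.4 to 14.6 CPM in the other mice. Itga4 in Cxcr6-positive CD8+ Tc was 756 CPM in Havcr2fl/fl;E8icre/+ replicate 1 and 697 to 703 CPM in the others. Itgb2 in the same cells was 290.4 CPM in Havcr2fl/fl replicate 2 and 327 to 331 CPM in the others.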

How the results depend on the processing

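The count of integrin genes past the threshold kept its value within 1.5 times in 93 alternatives over the 8 comparisons, rose in 2 and fell in 4. With each library left out it was 0 for genotype in CD8+ Tc, in CD4+ Tc and for the difference of the genotype effects, and 0 to 3 outside the T cell clusters. It was 6 to 7 for CD8+ minus CD4+ Tc, 5 to 6 for Tcf7, 4 for Cx3cr1 and 4 to 5 for Cxcr6. Outside the T cell clusters 3 genes passed without Havcr2fl/fl replicate 1 (Itgb2 reversed from -0.55 to 1.49, Itgal 1.67, Itgb7 1.00, as log2 fold changes) and 1 without Havcr2fl/fl replicate 2 (Itgb2 -1.36). With no replicate block (the mouse left out of the model), 4 genes passed for CD8+ minus CD4+ Tc, 1 for Cx3cr1 and 1 for Cxcr6; with cells thinned to 2000 UMIs, 3 passed for Cxcr6. Itga4 lost its call for CD8+ minus CD4+ Tc without Havcr2fl/fl;E8icre/+ replicate 1 (edgeR adjusted p = 0.0551), without Havcr2fl/fl;E8icre/+ replicate 2 (0.0928) and without Havcr2fl/fl replicate 2 (0.061), and for Tcf7 without either Havcr2fl/fl library. The cause of these changes was not tested. Over all genes, genotype calls in CD8+ Tc, CD4+ Tc and other cells were 3, 1 and 0, and 84, 51 and 56 with no filter on low counts; leaving out a library gave up to 32, 29 and 491. The difference of the genotype effects had 2 calls, and 57 with no filter. DESeq2 called 5 genes in CD4+ Tc and 26 in other cells, and 1509, 883, 462 and 328 for CD8+ minus CD4+ Tc, Tcf7, Cx3cr1 and Cxcr6, where edgeR called 2563, 1413, 958 and 783; without the mouse as a block edgeR called 1014, 687, 181 and 50, and with thinned cells 689 for Tcf7 and 237 for Cx3cr1. Replicate numbers of the genotypes did not pair the mice (correlation of deviations -0.12, -0.08 and -0.16 in the same classes). The replicate block gave 0, 0 and 0 calls over all genes, and the crossed block, added after the data were seen, 59, 38 and 0, none of them an integrin gene. Itgae had too few UMIs in CD8+ Tc (5 to 12 per library) for a test of genotype there, and each genotype had 2 mice.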
